A study of Mus musculus with 6 samples.

Results

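The genes of 41 lysosomal enzymes, membrane proteins and regulators were followed in mouse erythroblasts that matured with or without added cholesterol. They were chosen by symbol from the deposited tables, which list 17463 genes, and all 41 were found. By role they are 10 proteases, 10 genes for the breakdown of sphingolipids and other lipids, 7 for glycosaminoglycans, 5 for glycoproteins and glycogen, 6 membrane proteins, progranulin (Grn) and the transcription factors Tfeb and Tfe3. All 41 passed the filter on low counts and were tested among 11277 genes.

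TER119-negative cells were isolated from the livers of C57BL/6J fetuses at E14.5 and grown in medium with erythropoietin (Epo) for 30 h. TER119 appears on the surface of maturing erythroid cells, and the TER119+ cells were sorted for RNA-seq. The 3 control samples received no cholesterol (untreated per the labels, vehicle-treated per the study's figure legends) and the 3 cholesterol samples received 40 µM. Both groups shared the strain, the fetal stage, the Epo medium and the sort, and the samples are numbered 1 to 3 in each group. The labels do not say whether the samples came from separate cultures or animals. The study speaks of independent experiments for a group of panels that includes this RNA-seq, without tying them to the samples or their numbers. The p-values measure the spread between these samples, which may be technical.

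Lysosomes are acidic organelles in which proteases, lipases, glycosidases and sulfatases break down material from endocytosis and autophagy. Most of the soluble enzymes reach them by a mannose 6-phosphate tag, and their membrane proteins carry ions, lipids and signals. Cholesterol taken up in lipoproteins is released in lysosomes, and the organelle surface is where mTORC1 is switched on by nutrients. TFEB and TFE3 are transcription factors of the MiT/TFE family that bind an E-box in the promoters of many lysosomal genes and raise them when nutrients are short. Maturing erythroblasts use lysosomes to clear their organelles, whereas macrophages and neutrophils, which also form in the fetal liver, are rich in lysosomal proteases.

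The letters of that E-box were searched in RefSeq promoter windows (build GRCm38.p6) that ran from 250 bases before to 50 bases after an annotated start of a gene. A gene with several windows counted if any of them held a match, and the shares were not adjusted for the number of windows. Windows were at hand for 37 members. Asah1, Ctsb, Ctsh and Galns had no entry. TCACGTG, read on either strand, stood in a window of 12 of the 37 members (32.4%) and of 4.29% of all 27025 genes with one. The 12 genes were Arsa, Cln3, Ctsa, Ctsd, Gaa, Gla, Glb1, Lamp1, Lgmn, Mcoln1, Naglu and Sgsh. The palindrome TCACGTGA, which contains TCACGTG, stood in 5 of the 37 (13.5%, against 1.12% of all genes with a window), and the shorter CACGTG within both stood in 13 (35.1%, against 8.09%). TCACNCCAC, a form of the sterol response element, stood in 1 (2.7%, Ctsc, against 1.44%), and the stricter 10-base SRE-1 in none of the 37 (0.0999% of all genes with a window). A match is a description of these letters and not a measured binding site.

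Stretches from 7 of these promoters are shown because they hold the palindrome, several matches, or, for Lgmn, the match of a member that was lower with cholesterol. Each is written 5′ to 3′ on the strand of the gene and ends before the annotated start of its window. Matches to TCACGTG or its reverse complement are in capitals. For Cln3, Ctsa and Lgmn, that start and the stretch lie inside the annotated span of the gene, downstream of its 5′ end. Lamp1 (chr8:13159085-13159160, plus strand) holds several matches, Mcoln1 (chr8:3500433-3500494, plus), Cln3 (chr7:126583337-126583399, minus) and Gla (chrX:134601179-134601247, minus) hold pairs, and Ctsd (chr7:142387905-142387940, minus), Ctsa (chr2:164833746-164833772, plus) and Lgmn (chr12:102439122-102439156, minus) hold 1 each. The window of Ctsd has a further match upstream of the stretch shown.
Lamp1: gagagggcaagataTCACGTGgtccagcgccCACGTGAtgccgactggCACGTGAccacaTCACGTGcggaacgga
Mcoln1: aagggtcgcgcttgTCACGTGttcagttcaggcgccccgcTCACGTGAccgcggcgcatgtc
Cln3: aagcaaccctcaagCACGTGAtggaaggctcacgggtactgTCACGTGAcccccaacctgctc
Gla: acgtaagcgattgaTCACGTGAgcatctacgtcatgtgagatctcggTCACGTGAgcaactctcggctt
Ctsd: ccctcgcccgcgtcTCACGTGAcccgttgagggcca
Ctsa: caatgagcaaactgTCACGTGAtgcag
Lgmn: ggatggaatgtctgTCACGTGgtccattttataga

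Total counts lay between 19826849 and 20061724 per sample, so that 3 counts, the smallest level taken as detectable, lay at 0.148 to 0.156 CPM, the unit of all levels per sample given here (counts relative to the TMM-scaled total of the library). All 12 erythroid markers, among them Klf1 and Hbb-bs, were detected, and their CPM summed to 154659 to 208300 in the control samples and to 139577 to 186157 in the cholesterol samples. Transcripts of other blood cells were present and differed between the samples. The CPM of 12 macrophage markers summed to 15.6, 47.3 and 180.1 in control samples 1, 2 and 3 and to 10.9, 19.1 and 76.7 in the cholesterol samples of the same numbers. Of these markers 10 passed the filter, Vsig4 was at 0 in every sample and Timd4 had at most 0.156 CPM. The 12 neutrophil markers summed to 74.9, 279 and 757 CPM in the control samples and to 44.8, 119 and 311 CPM in the cholesterol samples, and all 12 passed the filter. The 8 mast cell and basophil markers in the files summed to 3.18, 7.73 and 31.9 against 1.28, 2.47 and 5.27 CPM, with Tpsb2 at 0 in every sample. In these bulk samples, fewer cells of a type and less RNA per cell cannot be told apart.

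Levels of different genes were compared in FPKM, which divides by transcript length. They ranged from a mean of 478 FPKM for Ctsb to 0.417 for Sgsh over the 6 samples. The cysteine protease cathepsin B (Ctsb) and the aspartic protease cathepsin D (Ctsd, 294 FPKM) were the highest, and neither overlapped its neighbour in the order over the 6 samples. Prosaposin (Psap, 91.6 FPKM), the precursor of the saposins that present sphingolipids to their hydrolases, and Lamp1 (84.8 FPKM), a major glycoprotein of the lysosomal membrane, followed and overlapped each other. In all, 13 members had a mean of 10 FPKM or more, 25 were between 1 and 10 and 3 were below 1, and for 36 of the 40 neighbouring pairs in the order the ranges over samples overlapped. The highest member of each remaining role was Gusb for glycosaminoglycans (21.4 FPKM), Fuca1 for glycoproteins and glycogen (6.38 FPKM) and Tfe3 for the transcription factors (13.1 FPKM, against 1.75 for Tfeb), beside Grn at 14.1 FPKM.

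**Figure D1:**
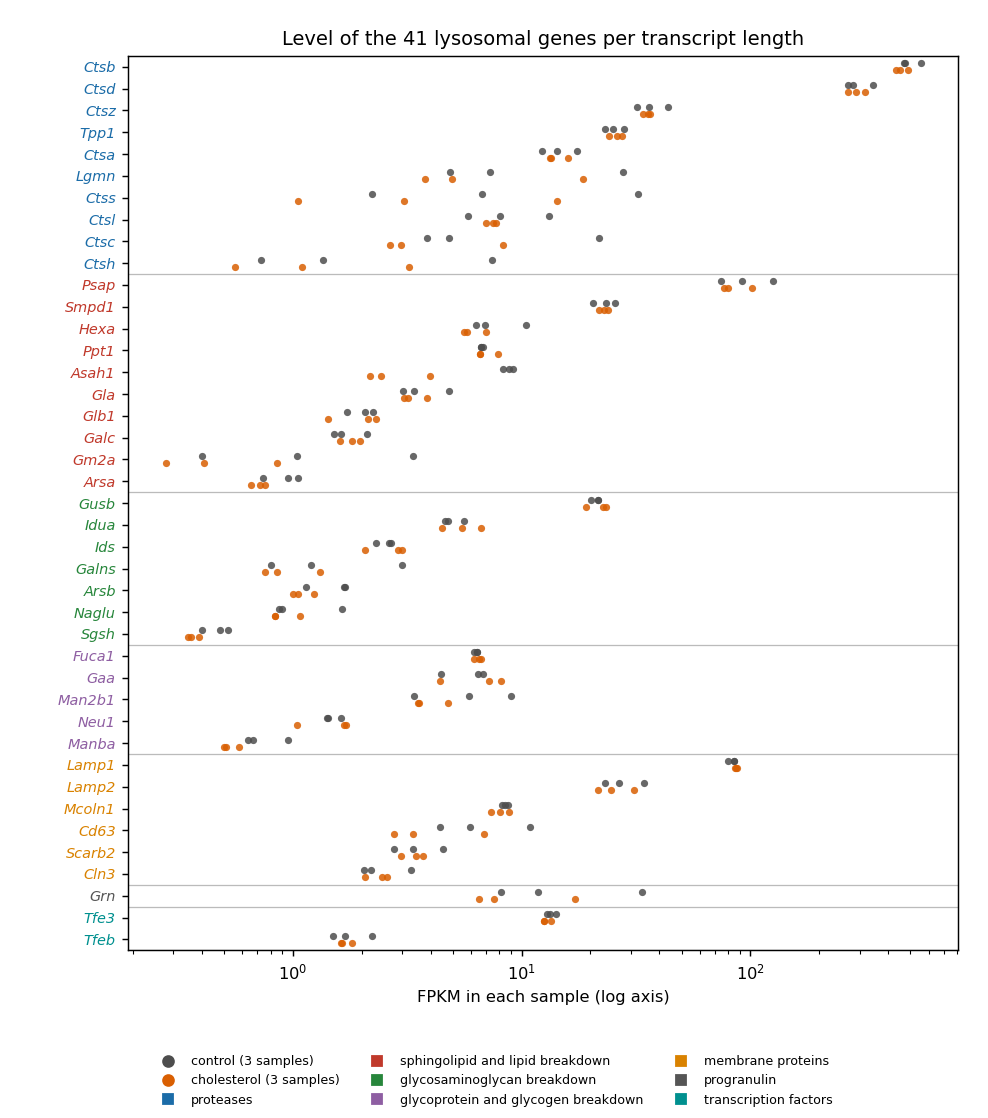
Level of each of the 41 genes in FPKM (horizontal log axis) in the 3 control (grey) and 3 cholesterol (orange) samples, 1 point per sample, grouped by role and ordered by mean level. Ctsb and Ctsd stand far to the right, the points of Asah1 separate by treatment, and those of Ctss, Ctsh, Gm2a and Grn are spread widely within each group.

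The question was whether added cholesterol changed the lysosomal genes. With condition alone in edgeR's quasi-likelihood test, 0 of the 41 members passed an adjusted p of 0.05 (Benjamini-Hochberg over all genes tested), against 0% of the 11277 genes in the lower and 0.00887% in the higher direction. At an unadjusted p under 0.05 there was 1 member, Asah1, against 1.92% of all genes in the lower and 2.63% in either direction. DESeq2 on the same counts called 1 member at an adjusted p under 0.05, again Asah1, beside 28 of 11275 genes lower and 3 higher. The median log2 fold change of the members was −0.15 against 0.01 for all genes tested, and 34 of the 41 values were negative against 47.9% of all genes. That median rested on 1 library: without control sample 3 it was 0.04. Of the 41 members, 20 were lower with cholesterol in all 3 same-numbered pairs (20.1% of all genes were) and 1, Lamp1, was higher in all 3 (20% of all genes). The groups did not overlap, with control the higher, for 4 members, Arsa, Asah1, Manba and Sgsh (4.28% of all genes), and with control the lower for 0 members (3.72% of all genes). The smallest p that an exact permutation test could give for a single gene with 3 samples against 3 is 0.1, so none was run.

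Same-numbered samples deviated together across all genes, so the treatment was also tested with the replicate number as a block. In that fit 9 of the 41 members fell with cholesterol, against 5.2% of all genes, and 0 rose, against 1.65%. They were 4 of the 10 proteases (Ctsb, Ctsh, Ctss and Lgmn), 3 of the 10 lipid breakdown genes (Asah1, Gm2a and Hexa), 1 of the 6 membrane proteins (Cd63) and Grn. None of the 7 glycosaminoglycan genes, the 5 glycoprotein and glycogen genes or the 2 transcription factors passed. limma on log2(FPKM + 1) or log2(FPKM + 0.1) with the same block, which changes both the unit and the test, called 0 of the 41 members, and 5 and 0 of all genes. DESeq2 with the block called 6 of the 41, without Cd63, Ctsh and Hexa, and 248 of 10621 genes lower. Without the samples numbered 2, 5 members and 296 of all genes passed in the block fit, without those numbered 1 there were 12 and 821, and without those numbered 3 there were 8 and 726.

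**Figure D2:**
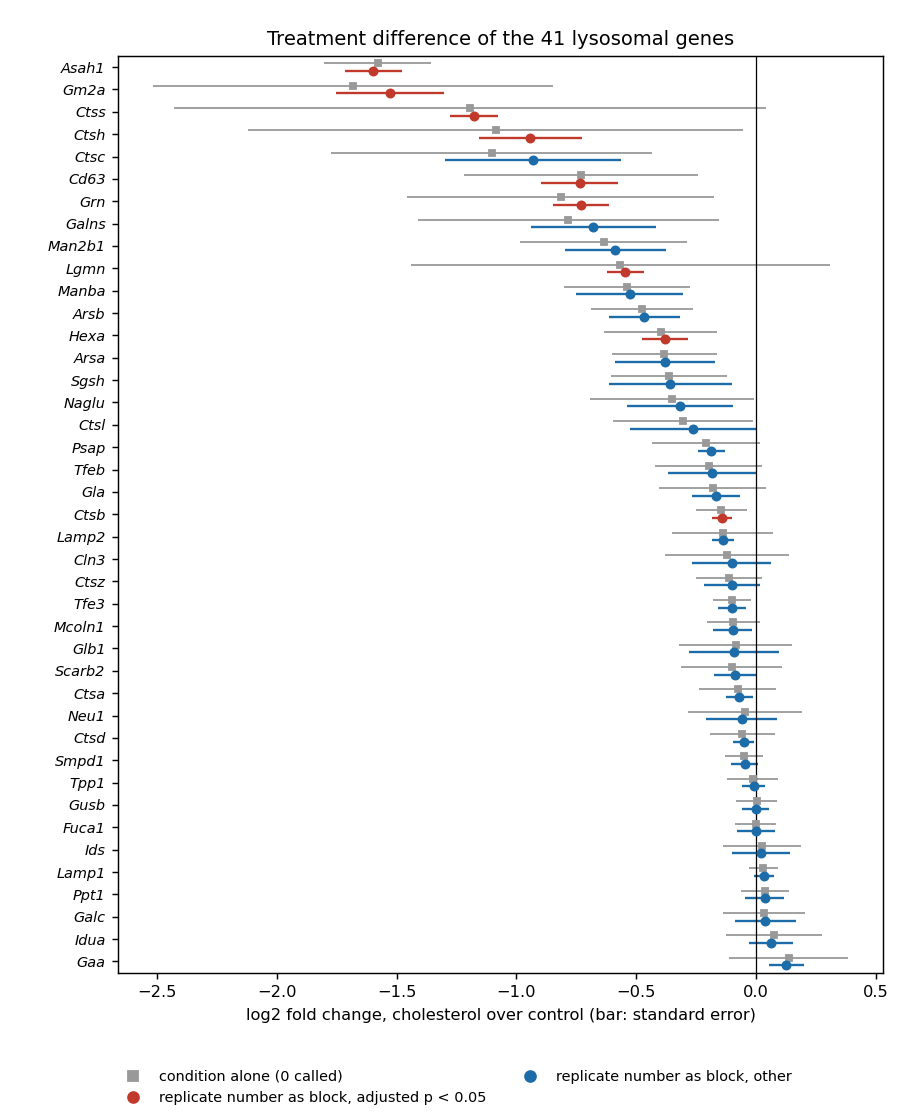
Log2 fold change of each member, cholesterol over control (horizontal axis), with its standard error, from the fit with condition alone (grey squares) and from the block fit (circles, red where the adjusted p is under 0.05). The estimates of both fits lie close together, the bars are shorter with the block, and Asah1 is the member with a short bar far from 0 in both.

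Asah1 encodes acid ceramidase, which splits ceramide into sphingosine and a fatty acid, and is annotated at chr8:41340646-41397644 (GRCm38.p6). It measured 19.7, 20.5 and 22.2 CPM in control samples 1, 2 and 3 and 5.91, 5.43 and 9.51 CPM in the cholesterol samples. Every control sample lay above every cholesterol sample, and the controls were close to each other (20.8 ± 1.26 CPM, SD, n = 3, against 6.95 ± 2.23). The log2 fold change was −1.58 (standard error, SE, 0.23, adjusted p = 0.86) by edgeR with condition alone and −1.60 (SE 0.12, adjusted p = 3.5e-06) with the block, that is, 3.03-fold lower. Each SE given was derived from the F statistic of the edgeR test, as the absolute log2 fold change divided by the square root of F. DESeq2 with condition alone gave an adjusted p of 9.86e-07, and edgeR without cholesterol sample 3 gave −1.87 with an adjusted p of 0.0437. In the test of the replicate number Asah1 had an adjusted p of 0.067 (edgeR), and it passed that test with no filter on low counts, without control sample 2 and without control sample 3. The ratio of cholesterol to control was 0.30, 0.27 and 0.43 in the pairs numbered 1, 2 and 3. That of the macrophage marker sum was 0.70, 0.40 and 0.43. Asah1 was 1.12-fold higher in control sample 3 than in control sample 1 and 1.61-fold higher in cholesterol sample 3 than in cholesterol sample 1.

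All 9 members that fell, Asah1 included, were highest in control sample 3. Each was lower with cholesterol in all 3 pairs, so its highest sample could only be a control one. The share among all genes that fell was not counted. Cathepsin S (Ctss), a cysteine protease of antigen-presenting cells, measured 2.78, 8.96 and 45.6 CPM in the control samples and 1.38, 3.95 and 19.7 CPM in the cholesterol samples. The groups overlapped, but the ratio of cholesterol to control was 0.50, 0.44 and 0.43 within the pairs. The log2 fold change with the block was −1.18 (SE 0.10, adjusted p = 3.87e-07, edgeR). Legumain (Lgmn), an asparaginyl endopeptidase that processes cathepsins, measured 9.45, 13.97 and 55.4 against 7.15, 9.43 and 36.7 CPM. Its pair ratios were 0.76, 0.68 and 0.66 and its log2 fold change with the block was −0.55 (SE 0.08, adjusted p = 1.38e-04, edgeR). Cathepsin H (Ctsh), an aminopeptidase, was the lowest protease of the list in FPKM and measured 1.21, 2.18 and 12.3 against 0.84, 1.48 and 5.06 CPM. It was lower in each pair, with a log2 fold change of −0.94 (SE 0.22, adjusted p = 0.0105, edgeR with the block), but did not pass without the samples numbered 3 or with DESeq2 and the block (adjusted p = 0.245). With condition alone and without control sample 3, the log2 fold changes of these 3 proteases had the other sign, at 0.51 for Ctss, 0.60 for Lgmn and 0.53 for Ctsh.

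Cathepsin B (Ctsb), at chr14:63122462-63145923, fell by the smallest amount. It measured 889, 874 and 1069 CPM in the control samples and 794, 831 and 935 CPM in the cholesterol samples. The groups overlapped and each pair was lower, with a log2 fold change of −0.14 (SE 0.04, adjusted p = 0.036, edgeR with the block). It did not pass when the samples of any 1 number were left out or with total counts in place of TMM (adjusted p = 0.085, edgeR with the block). In GENCODE, Ctsb shares 774 exon bases with Fdft1 on the opposite strand, the gene of squalene synthase in cholesterol synthesis. The sources do not state that counting used strand, so reads of the pair cannot be told apart there. Fdft1 measured 189, 162 and 126 CPM in the control samples and 76.8, 80.9 and 94.2 CPM with cholesterol, and its part in the value of Ctsb was not tested.

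Of the remaining proteases none passed in either treatment fit. With the block, Ctsc passed when the samples numbered 3 were left out and Ctsl when those numbered 1 were. Cathepsin C (Ctsc), which activates the granule proteases of neutrophils and mast cells, measured 15.7, 23.0 and 82.1 against 13.2, 14.6 and 28.5 CPM. It was lower in each pair, but the pair ratios spread from 0.84 to 0.35 and the adjusted p was 0.39 (log2 fold change −0.93, SE 0.37, edgeR with the block). Ctsa, Ctsd, Ctsl, Ctsz and Tpp1 (tripeptidyl peptidase 1) had log2 fold changes between −0.26 and −0.01 in the block fit and adjusted p-values of 0.56 to 0.94, and like the other proteases each was highest in control sample 3.

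Among the genes of lipid breakdown, Gm2a and Hexa fell beside Asah1. Hexa encodes the alpha subunit of beta-hexosaminidase A and Gm2a the activator protein that lifts GM2 ganglioside out of the membrane for it. Gm2a measured 1.77, 4.46 and 15.1 against 1.18, 1.73 and 3.73 CPM, with a log2 fold change of −1.53 (SE 0.23, adjusted p = 9.36e-04, edgeR with the block). Its pair ratios were 0.67, 0.39 and 0.25. Hexa measured 11.98, 12.8 and 20.5 against 10.7, 10.2 and 13.4 CPM, with a log2 fold change of −0.38 (SE 0.10, adjusted p = 0.021, edgeR with the block). Hexa did not pass when the samples numbered 2 or those numbered 3 were left out, with total counts in place of TMM (adjusted p = 0.054, edgeR) or with DESeq2 (adjusted p = 0.41), each with the block. Psap measured 199, 238 and 345 against 198, 207 and 271 CPM. The pair numbered 1 was nearly equal and those numbered 2 and 3 were lower, with an adjusted p of 0.070 (log2 fold change −0.19, SE 0.06, edgeR with the block). With the block, Psap passed with no filter on low counts and without the samples numbered 1. Arsa (arylsulfatase A), Galc, Gla, Glb1, Ppt1 and Smpd1 (acid sphingomyelinase) had log2 fold changes between −0.38 and 0.04 in the block fit, with adjusted p-values of 0.34 to 0.92.

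Progranulin (Grn), a secreted and lysosomal glycoprotein that is cut into granulins, measured 19.6, 27.3 and 82.7 CPM in the control samples and 15.03, 17.6 and 41.05 CPM in the cholesterol samples. It was lower in each pair, with ratios of 0.77, 0.65 and 0.50, and a log2 fold change of −0.73 (SE 0.12, adjusted p = 0.017, edgeR with the block). It did not pass without the samples numbered 2, and with condition alone its log2 fold change without control sample 3 was 0.07.

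**Figure D3:**
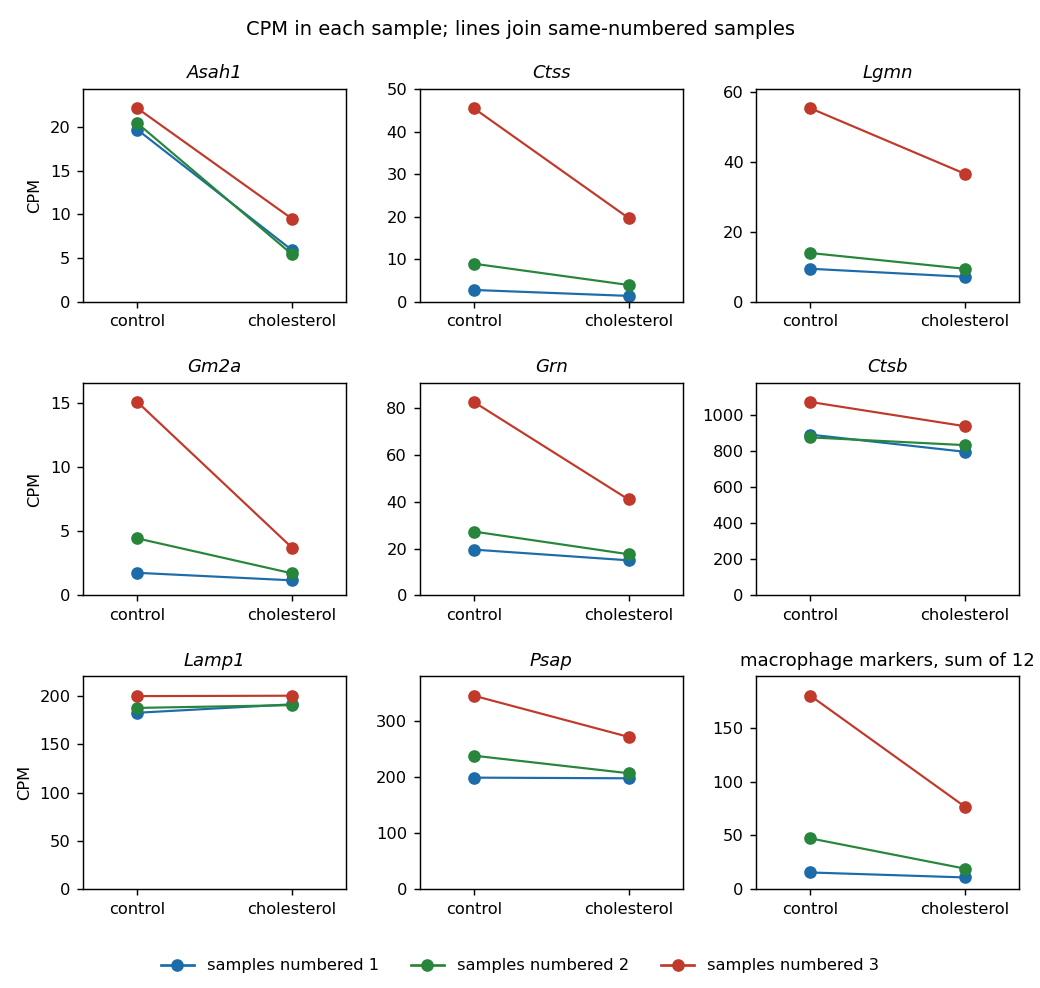
CPM (vertical axes from 0, a scale for each panel) of 8 genes and of the sum of the 12 macrophage markers in control and cholesterol samples, with lines joining same-numbered samples. The 3 lines of Asah1 fall together, those of Ctss, Lgmn, Gm2a, Grn and the macrophage sum are highest for number 3, and those of Lamp1 lie between 183 and 200.3 CPM.

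Of the membrane proteins, the tetraspanin gene Cd63 fell. It measured 3.99, 5.25 and 10.1 against 3.01, 2.42 and 6.24 CPM, with a log2 fold change of −0.74 (SE 0.16, adjusted p = 0.0078, edgeR with the block), and did not pass without the samples numbered 2 or with DESeq2 and the block (adjusted p = 0.169). Lamp1, whose promoter stretch above holds several E-box matches, measured 183, 188 and 199.9 CPM in the control samples and 191, 191 and 200.3 CPM in the cholesterol samples. The samples of both groups were interleaved and its log2 fold change was 0.03 (SE 0.04, adjusted p = 0.77, edgeR with the block). Lamp2, which encodes a related glycoprotein of the lysosomal membrane and whose isoforms are not separated by counts per gene, measured 70.4, 83.2 and 109 against 64.3, 75.7 and 98.1 CPM. Its pair ratios of 0.91, 0.91 and 0.90 were nearly the same, with an adjusted p of 0.086 (log2 fold change −0.14, SE 0.05, edgeR with the block). Cln3, the cation channel gene Mcoln1 and Scarb2, which carries beta-glucocerebrosidase to the lysosome, had log2 fold changes between −0.10 and −0.09, with adjusted p-values of 0.56 to 0.81.

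The enzymes of glycosaminoglycan and glycoprotein breakdown passed in neither fit. In other settings of the block fit, Arsb and Galns passed with no filter on low counts. Galns and Man2b1 passed without the samples numbered 1, and Man2b1 without those numbered 3. Arsb (arylsulfatase B) came nearest, with 4.70, 6.69 and 7.16 against 3.99, 4.94 and 4.40 CPM (log2 fold change −0.47, SE 0.15, adjusted p = 0.069, edgeR with the block). Gusb (beta-glucuronidase) measured 46.6, 48.4 and 49.1 against 42.9, 49.4 and 51.7 CPM, and its log2 fold change of 0.00 had an SE of 0.06. Galns, Ids, Idua, Naglu and Sgsh, which act on keratan, heparan and dermatan sulfate, had log2 fold changes between −0.68 and 0.06 and adjusted p-values of 0.15 to 0.95. Manba (beta-mannosidase) measured 2.43, 2.48 and 3.69 against 1.87, 1.83 and 2.198 CPM, with every control sample above every cholesterol sample and an adjusted p of 0.19 (log2 fold change −0.53, SE 0.22, edgeR with the block). Man2b1 (an alpha-mannosidase) measured 11.8, 19.2 and 30.8 against 11.9, 11.8 and 16.1 CPM, which was no lower in the pair numbered 1 (adjusted p = 0.27, edgeR with the block). Fuca1 (an alpha-fucosidase) measured 16.6, 15.6 and 16.97 against 15.6, 16.6 and 16.9 CPM, a log2 fold change of 0.00 with an SE of 0.08. Neu1 had a log2 fold change of −0.06 (SE 0.15).

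The transcription factors passed in neither fit. Tfeb measured 4.09, 3.32 and 5.19 CPM in the control samples and 3.94, 3.46 and 3.58 CPM in the cholesterol samples (log2 fold change −0.18, SE 0.18, adjusted p = 0.65, edgeR with the block). Tfe3 measured 44.1, 39.6 and 43.1 against 38.1, 38.1 and 42.0 CPM (log2 fold change −0.10, SE 0.06, adjusted p = 0.37). RNA levels say nothing of where these proteins sat in the cell. The 12 members with TCACGTG in their window had a median log2 fold change of −0.11 with condition alone, in a range from −0.57 to 0.13, and the 25 members whose window lacked it had a median of −0.14, from −1.68 to 0.07. With the block, 1 of the 12 (Lgmn) and 5 of the 25 fell, against 5.2% of all genes.

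The samples differed more by number than by treatment. In the F test of the replicate number, with condition kept in the model, 19 of the 41 members passed, against 46.3% of all genes, so the members' share was at the background. Of these 19, 18 were higher in sample 3 than in sample 1 in both groups and 1, Gaa, was lower. Of all 41 members, called or not, 30 were higher in sample 3 than in sample 1 in both groups, against 40.4% of all genes. That share was not computed for the genes called in this test alone. The 19 members that passed held 7 of the 10 proteases, 4 of the 10 lipid breakdown genes, 3 of the 7 glycosaminoglycan genes, 3 of the 6 membrane proteins, Gaa and Grn. Among them were 8 of the 9 members that fell with cholesterol. The other 11 of the 19 passed only the test of the number, and 21 members passed neither test. The members were highest in control sample 3 in 30 of 41 cases, against 24.4% of all genes, and lowest in cholesterol sample 1 in 17 of 41, against 19.5%. Their CPM summed to 2485, 2579 and 3406 in the control samples and to 2340, 2456 and 2861 in the cholesterol samples.

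The differences between samples 3 and 1 were largest for Ctss, which was 16.4-fold higher in control sample 3 than in control sample 1 and 14.3-fold higher in cholesterol sample 3 than in cholesterol sample 1. For Ctsh the folds were 10.1 and 6.04, for Gm2a 8.54 and 3.15, for Lgmn 5.86 and 5.13, for Ctsc 5.24 and 2.16, for Galns 4.78 and 1.75 and for Grn 4.22 and 2.73. In all, 10 members were at least 2-fold higher in the control pair of samples and 7 in the cholesterol pair. The share of all genes past this fold was not counted, so these counts do not set the members apart from other genes. Acid alpha-glucosidase (Gaa), which breaks down glycogen, differed in the other direction, with 24.4, 22.5 and 16.4 CPM in the control samples and 28.3, 25.2 and 15.9 CPM in the cholesterol samples (adjusted p of the number 1.05e-05, edgeR). The log2 ratios of sample 3 to sample 1 in the 2 groups had a Pearson r of 0.89 and a Spearman rho of 0.73 across the 41 members, against an r of 0.82 across all genes. This describes genes that share the same 4 libraries, and genes are not independent replicates. The median log2 ratio of the members was 0.41 in the control and 0.27 in the cholesterol group, against −0.01 and 0.00 for all genes.

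Markers of macrophages, neutrophils, mast cells and basophils also differed between the groups. In the block fit, 4 of the 10 macrophage markers tested were lower with cholesterol (Adgre1, C1qb, C1qc and Csf1r) and Cd5l was higher, 11 of the 12 neutrophil markers were lower, and 3 of the 3 mast cell and basophil markers tested were lower. Of the 7 megakaryocyte markers 1 was lower (Itga2b), and their sum had pair ratios of 0.97, 0.96 and 0.81 and was 1.11-fold higher in control sample 3 than in control sample 1. Of the 5 hepatocyte markers 0 passed, and their sum had pair ratios of 1.75, 0.69 and 0.84. Of the 12 erythroid markers 3 were lower (Alas2, Hba-a2 and Hbb-bs), and their sum had pair ratios of 0.84, 0.94 and 0.89. The 6 samples had the order of the macrophage sum for 5 members (Ctsh, Ctss, Gla, Psap and Lamp2), against 2.97% of all genes. The neutrophil sum had pair ratios of 0.60, 0.43 and 0.41. The part of these cells in the values of Asah1, Ctsb, Ctss, Ctsh, Gm2a, Grn, Lgmn, Cd63 and Hexa was not tested. No member was a marker of the lists used.

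**Figure D4:**
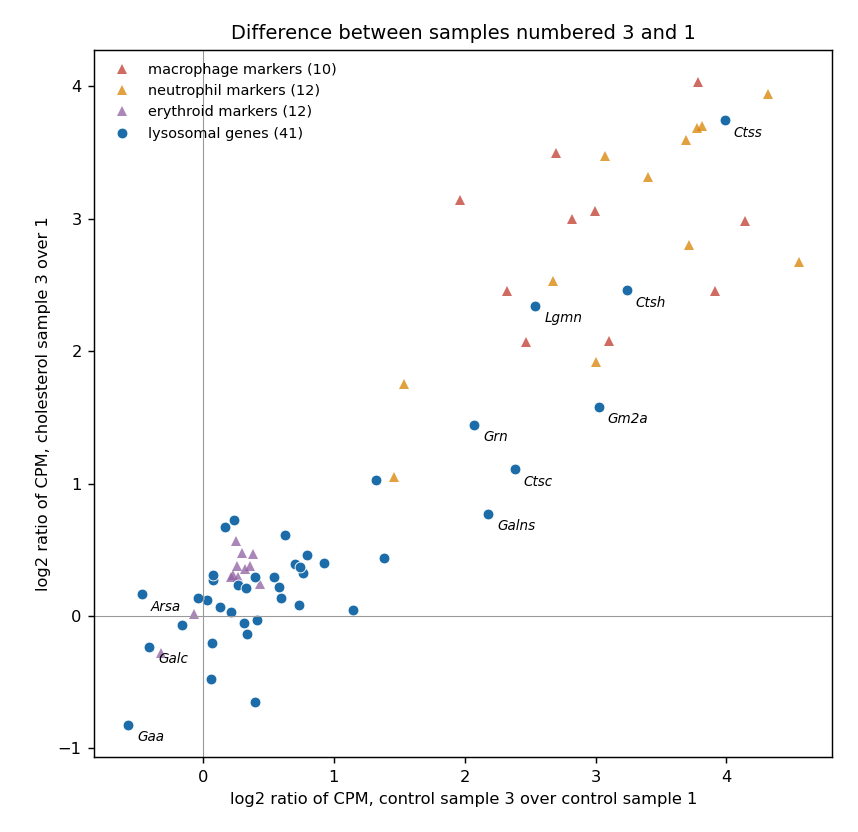
Log2 ratio of CPM in sample 3 over sample 1 in the control group (horizontal) and the cholesterol group (vertical) for the 41 lysosomal genes (circles) and for macrophage, neutrophil and erythroid markers that passed the filter (triangles). Ctss, Ctsh and Lgmn lie among the macrophage and neutrophil markers at the upper right, most members lie near the origin with the erythroid markers, and Gaa lies at the lower left.

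Other lysosomal and autophagy genes, from lists written by hand, were set beside the members, with calls from the block fit, in which 5.2% of all genes were lower and 1.65% higher. Among other soluble lysosomal proteins, Npc2 and Scpep1 fell, Acp5 (an acid phosphatase) rose and the median log2 fold change with condition alone was −0.04 over the 22 tested. Npc2, which hands cholesterol to NPC1 inside the lysosome, measured 47.7, 39.8 and 54.5 CPM in the control samples and 30.3, 27.9 and 31.1 CPM in the cholesterol samples. Like Asah1 it separated the groups, with a log2 fold change of −0.66 (SE 0.06, adjusted p = 2.04e-06, edgeR with the block). Scpep1 (a serine carboxypeptidase) measured 7.58, 8.22 and 12.04 against 4.34, 5.93 and 7.36 CPM (adjusted p = 0.0021). Of 21 other lysosomal membrane proteins, 3 fell (Cd68, Laptm5 and Slc11a1, which are abundant in macrophages or other white blood cells), 1 rose (Sidt2) and the median was −0.02. Laptm5 measured 14.2, 29.7 and 77.2 against 9.07, 12.4 and 30.2 CPM, and like the macrophage sum it was highest in the samples numbered 3 of each group.

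Of 18 subunits of the V-ATPase, the proton pump that acidifies the lysosome, 2 fell (Atp6v1a and Tcirg1), 0 rose and the median was −0.03. None of the 15 genes of mannose 6-phosphate tagging and sorting passed in either direction (median −0.02), nor did any of the 30 autophagy genes (median 0.01). These counts stand beside the same 5.2% and 1.65% of all genes. Of 15 genes of mTORC1 docking and MiT/TFE control, 1 rose (Flcn, folliculin, which acts on RagC and RagD), 2 fell (Rragd and Ywhag) and the median was −0.08. Flcn measured 20.2, 20.6 and 25.3 against 22.7, 22.5 and 35.2 CPM (log2 fold change 0.26, SE 0.08, adjusted p = 0.043, edgeR with the block). Rragd, the gene of RagD and a known target of TFEB, measured 21.1, 13.1 and 5.76 against 13.8, 11.6 and 4.65 CPM, so it was lowest in the samples numbered 3, and its log2 fold change was −0.39 (SE 0.10, adjusted p = 0.029, edgeR with the block). TCACGTG stood in a window of 21 of the 98 genes of these lists with an entry, against 4.29% of all genes with a window.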

How the data were processed

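RNA-seq of 3 control and 3 cholesterol samples was analysed, grouped by the sample labels. Per the labels, poly(A) RNA was read as single ends of 50 bases. The submitters' processing notes name HISAT2 2.0.4, Bowtie2 2.2.5, RSEM 1.2.12, DESeq2 1.4.5 and the build GRCm38.p6. The authors deposited expected counts per gene (RSEM-type estimates, 27.9% to 29.5% of them not whole), without normalization, and a second table of normalized values with no named unit. The values of that deposited table were taken as FPKM, because divided into the counts they give lengths close to those of transcripts.

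The planned tests assumed whole counts, so the expected counts were rounded. edgeR 4.0.16 in R 4.3.3 was run on all genes with filterByExpr (a minimum of 10 counts in enough samples and 15 in total), TMM scaling and the robust quasi-likelihood test, with Benjamini-Hochberg adjustment over 11277 genes and a threshold of 0.05. Every adjusted p printed is adjusted over all genes tested in its own fit. These were the 11277 genes for edgeR on all samples with this filter, and other numbers for DESeq2, other filters and samples left out. DESeq2 1.42.0 and limma 3.58.1 on log2(FPKM + 1) and log2(FPKM + 0.1) were alternatives, with total counts or DESeq2 size factors in place of TMM, other filters and samples left out. The tests were also run on simulated counts, and the outcome is not given here. Condition alone was the main design and the replicate block an alternative to it. Replicate numbers come from the labels, which do not say what they stand for. After subtraction of the group means, the 2 samples of a number correlated across genes at 0.73, 0.35 and 0.82 for numbers 1, 2 and 3, so the numbers were taken to pair the samples. No libraries were copies of each other (smallest chi-square per degree of freedom 8.20). Exon overlaps came from the GENCODE annotation and promoters from RefSeq, both of GRCm38.p6. By these overlaps, 16 members share exon bases with another gene, 3 of them with one on the same strand, and their counts are uncertain to that extent. The floor of 3 counts covers counting error only.

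The members and the lists were chosen with earlier results of these data known. Values per sample are given for members that passed in either treatment fit, the 5 with the smallest p in each treatment fit and in the test of the number, the highest in FPKM of each role, Tfeb, Tfe3 and Grn. Ctsc, Galns and Fdft1 were added after their values were seen. Of each list of other lysosomal and autophagy genes, at most 3 called genes are named by the smallest p in the block fit. Cd68 lies outside this rule and completes the count of its list. Markers of cell types were named without such a rule. One further result for other soluble lysosomal proteins is not reported here.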

Additional observations from a re-analysis of the deposited data

How the results depend on the processing

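With condition alone, 0 members passed, and 9 did with the replicate block and 1 with DESeq2. Over all genes, 1 passed with condition alone, 772 with the block and 31 with DESeq2. With 1 sample left out, members called ranged from 0 to 1 (Asah1, without cholesterol sample 3) and all genes from 1 to 8, and the median log2 fold change of the members from −0.2513 to 0.03587, above 0 only without control sample 3. At an unadjusted p under 0.05 condition alone gave 1 member and 297 genes, and the block 14 and 2213. With the block, alternatives chosen after seeing the data gave 0 members and 5 genes by limma on log2(FPKM + 1), 0 members and 0 genes on log2(FPKM + 0.1), 6 members (not Cd63, Ctsh or Hexa) and 289 genes by DESeq2, 12 members and 1197 genes with no filter, and, with the samples of 1 number left out, 5 to 12 members and 296 to 821 genes, both lowest without number 2. Asah1 passed in 9 of the 11 block settings, the exceptions being limma. Over the 9 members that fell, 59 values in the other block settings kept their direction and call, 31 lost the call and 0 changed sign. The test of the number gave 11 members on log2(FPKM + 1) and 7 on log2(FPKM + 0.1), against 19, and over all genes 3016 by DESeq2 and 2073 on log2(FPKM + 0.1), against 5220. The cause of these shifts was not tested.

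For single members with condition alone, 247 values kept their direction and call, 11 became called and 22 changed sign. With 1 sample left out, the log2 fold change ranged from −2.162 to 0.533 for Ctsh, −2.833 to 0.5058 for Ctss, −1.399 to 0.06571 for Grn, −1.659 to 0.5991 for Lgmn, −0.3176 to 0.0486 for Lamp2, −0.3672 to 0.0451 for Psap, −0.03502 to 0.3454 for Gaa, −0.03312 to 0.03363 for Fuca1 and −0.05232 to 0.07616 for Gusb. The first 6 were above 0 only without control sample 3. Fuca1 (−0.001856) was 0.02863 with total counts, 0.002903 with no filter, 0.02572 on log2(FPKM + 1) and 0.02924 on log2(FPKM + 0.1). Gusb (0.00103) was −0.001853 with the block, −0.001208 with DESeq2, −0.001119 with its size factors and −0.003549 with at least 10 counts in every sample. The block changed no other call. What the numbers stand for is not given, so their differences cannot be told apart from any handling that a pair shared.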
